A study of Homo sapiens with 8 samples.

Results

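Transcript levels in total RNA were compared between ST486 cells that overexpress miR-155 (miR-155-ST486) and ST486 cells that carry the empty vector (EV-ST486). The comparison used the total (T) fraction channels, 4 of the 8 deposited samples, and the other 4 hold RNA immunoprecipitated with an antibody to Ago2 (IP) from the same cells. ST486 is a Burkitt lymphoma (BL) B cell line with low endogenous miR-155, used by the study to find transcripts that miR-155 recruits to Ago2. Both cell populations were transduced with the retroviral vector MXW-PGK-IRES-GFP, which has a PGK promoter and a green fluorescent protein (GFP) marker, and GFP+ cells were sorted. The miR-155 vector holds the pre-miRNA with flanking sequences as its insert. There was 1 RNA sample per vector, labelled once with Cy3 and once with Cy5. These labellings are technical repeats, so no spread between cultures could be estimated, and no p-value is given. Each vector was hybridized on its own slide, 2 slides with 4 arrays in all, so that a difference between the slides and a difference between the vectors cannot be told apart. The vector was inserted into a population of cells, and no second transduction was measured.

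MicroRNAs guide Ago2 to transcripts that pair with the seed, bases 2 to 8 of the mature strand. Silenced transcripts are held back from translation, and they are often deadenylated and degraded, so a target can be lower in total RNA. MiR-155 is processed from the noncoding transcript MIR155HG, is induced in activated B cells, and is abundant in several B-cell lymphomas but not in most BL. Both mature strands are shown because the insert can give rise to either, with the seed in capitals (RefSeq, GRCh38.p14, plus strand, chr21:25573983-25574006 for the first and chr21:25574022-25574043 for the second).

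hsa-miR-155-5p: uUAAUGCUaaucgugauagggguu
hsa-miR-155-3p: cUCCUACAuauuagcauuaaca

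An 8-mer site for miR-155-5p reads AGCATTAA in a transcript written as DNA, the complement of its seed followed by an A, and this is the site meant below. The array carries a probe for MIR155HG, the transcript that holds miR-155. It was not detected in either labelling of the EV total fraction, with log2 signals of 3.51 in Cy3 and 4.26 in Cy5, and was detected in both of the miR-155 total fraction, with 6.92 and 6.74. The values of this probe were normalized here, since it is not among the deposited probes used. As the EV signals were not well above background, the difference is given as at least 1.40-fold. Whether the probe lies within the cloned piece is not given in the sources used here, and mature miR-155 is not measured by these arrays.

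The deposited table holds 14453 probes, of which 10412 have a gene symbol, for 7930 genes. On the array, 22149 probes were detected above background in the Cy3 and 14891 in the Cy5 labelling of the EV total fraction, against 21307 and 19664 for the miR-155 total fraction, and among the deposited probes the lowest of these numbers was 13438, again in the Cy5 labelling of EV. No probe was saturated (0 in the total channels). Of the 6 B cell markers, among them MS4A1, CD79A, CD79B and CD22, 5 were detected in all 4 total channels, the exception being PAX5, and so were all 5 germinal centre and BL markers that have a probe. None of the 4 T and NK cell markers, the 4 myeloid markers or the 2 erythroid markers was detected in all 4 (0 in each set). The myeloid marker CD14 was, however, detected in 1 EV labelling and in both of the miR-155 total fraction. Its log2 signals, normalized here, were 6.04 in Cy3 and 4.26 in Cy5 against 6.45 and 5.95. The NK cell marker NKG7 was detected in 1 EV labelling.

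The difference of a probe was taken as the miR-155 minus the EV log2 signal within each dye, and then averaged over both dyes. Most transcripts differed little. The median difference was 0.01 over all probes and 0.04 over genes, each represented by its brightest probe, 95% of probes lay between -0.66 and 0.72, and 11376 probes (78.7%) were within 1.5-fold in both dyes. The Cy3 and Cy5 differences correlated with r = 0.61 across probes, which is a description since probes share their arrays and RNA. The Cy5 differences were wider, with an SD of 0.46 against 0.31 for Cy3. In a bulk population, a change in the share of cells and a change in RNA per cell cannot be told apart.

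A probe was called when its mean difference was at least 2-fold and its difference in each dye at least 1.5-fold the same way, and when it was detected in both labellings of the vector with the higher signal. By this rule 59 probes (0.408% of all probes) were higher in miR-155-ST486 cells and 43 (0.298%) were lower. The calls covered 42 genes with a symbol that were higher and 27 that were lower. At 1.5-fold in each dye, without the 2-fold mark, 230 probes (1.59%) were higher and 219 (1.52%) lower. The called probes that were higher were dim ones in large part. Of the 59, 40 were among the 3614 probes with the lowest signal, 36 were not detected in the Cy5 labelling of EV, and 54 differed more in Cy5 than in Cy3. Of the 43 that were lower, 19 were among these dim probes, 41 were detected in all 4 total channels, and 26 differed more in Cy5. With only probes detected in all 4 total channels, 23 higher and 41 lower probes were left. A normexp background correction in place of the one of the scanner software left 23 higher and 14 lower probes, of which 8 and 7 were among the original calls, and with loess it left 15 and 14, of which 6 and 6 were.

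**Figure D1:**
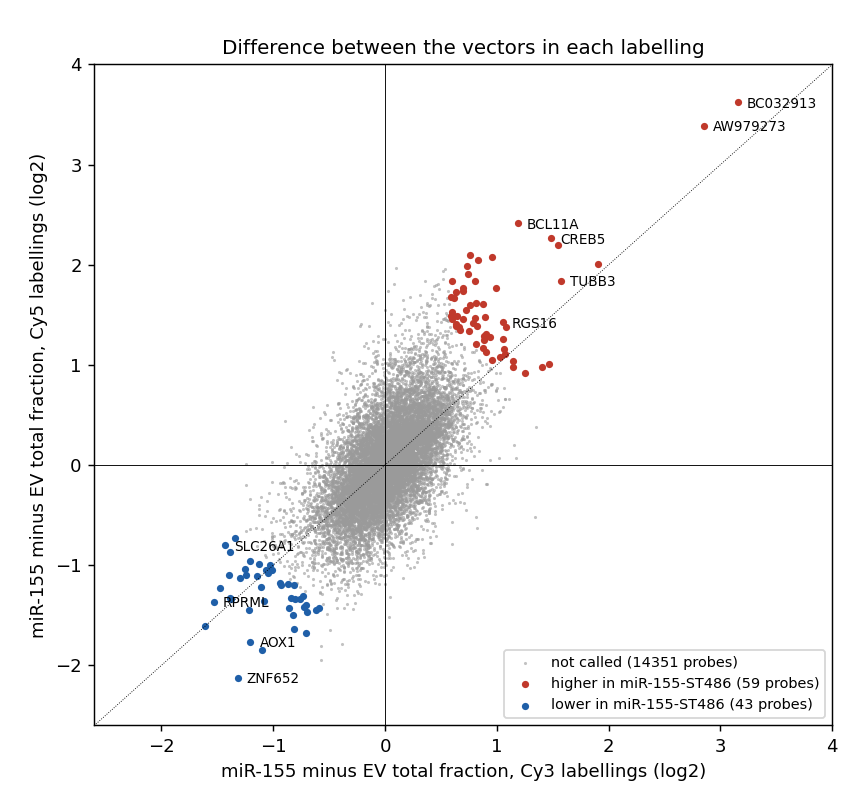
Each point is 1 of 14453 probes, with its miR-155 minus EV difference in the total fraction (log2) in the Cy3 labellings on the x axis and in the Cy5 labellings on the y axis. The 59 called higher probes (red) sit mostly above the dotted line of equal differences, and the 43 called lower probes (blue) lie on both sides of it.

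Of the higher genes detected in all 4 total channels, TUBB3 and RGS16 came first. TUBB3, a beta-tubulin known from neurons, had log2 signals of 11.91 and 11.89 in EV and of 13.48 and 13.73 in miR-155-ST486 cells (Cy3 and Cy5 in this order, here and below), 3.26-fold higher. A second TUBB3 probe differed by only 0.26. RGS16, a GTPase-activating protein that shortens G protein signalling, had 10.71 and 10.03 in EV and 11.77 and 11.46 in miR-155-ST486 cells, 2.36-fold higher, and its second probe was higher by 1.06 on the log2 scale. RGS16 was the 1 gene of several probes with every probe called higher. The RGS genes had no common direction, with a median difference of -0.01 over 8 genes, from -0.56 for RGS19 to 1.24 for RGS16.

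The next of these genes by difference were UPF1, GFM1 and DDX21. UPF1, the helicase of nonsense-mediated decay, had signals of 11.40 and 10.71 in EV and of 12.10 and 12.48 in miR-155-ST486 cells (mean difference 1.23). DDX21, an RNA helicase of the nucleolus, had 11.34 and 10.68 against 12.10 and 12.28 (1.18). In both genes the Cy5 difference was more than that in Cy3, 1.77 against 0.69 for UPF1 and 1.60 against 0.76 for DDX21. GFM1, a mitochondrial translation elongation factor, was higher by 1.08 in Cy3 and 1.38 in Cy5, 2.35-fold in the mean. UTP6, a component of the complex that processes the small ribosomal subunit RNA, was 2.15-fold higher, LRPPRC, which stabilizes mitochondrial mRNAs, 2.11-fold, and HNRNPU, a nuclear RNA-binding protein, 2.16-fold. The 2 further HNRNPU probes were higher by 0.89 and 0.56 on the log2 scale.

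XRCC5, the Ku80 subunit of DNA end joining, had signals of 11.06 and 10.30 in EV and 11.78 and 11.85 in miR-155-ST486 cells, a mean difference of 1.14. ADM, the peptide hormone adrenomedullin that is induced by hypoxia, had 8.02 and 8.01 against 8.95 and 9.29, a mean difference of 1.11. CYTIP, which binds cytohesins in lymphocytes, was higher by 1.09 and the adaptor CD2AP by 1.05. A second CD2AP probe was higher by only 0.40. In any called gene the labellings of the vectors do not overlap, because probes more than 2-fold apart between dyes had been filtered out. With the 2-fold mark this leaves no room for overlap, so it is not further evidence.

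**Figure D2:**
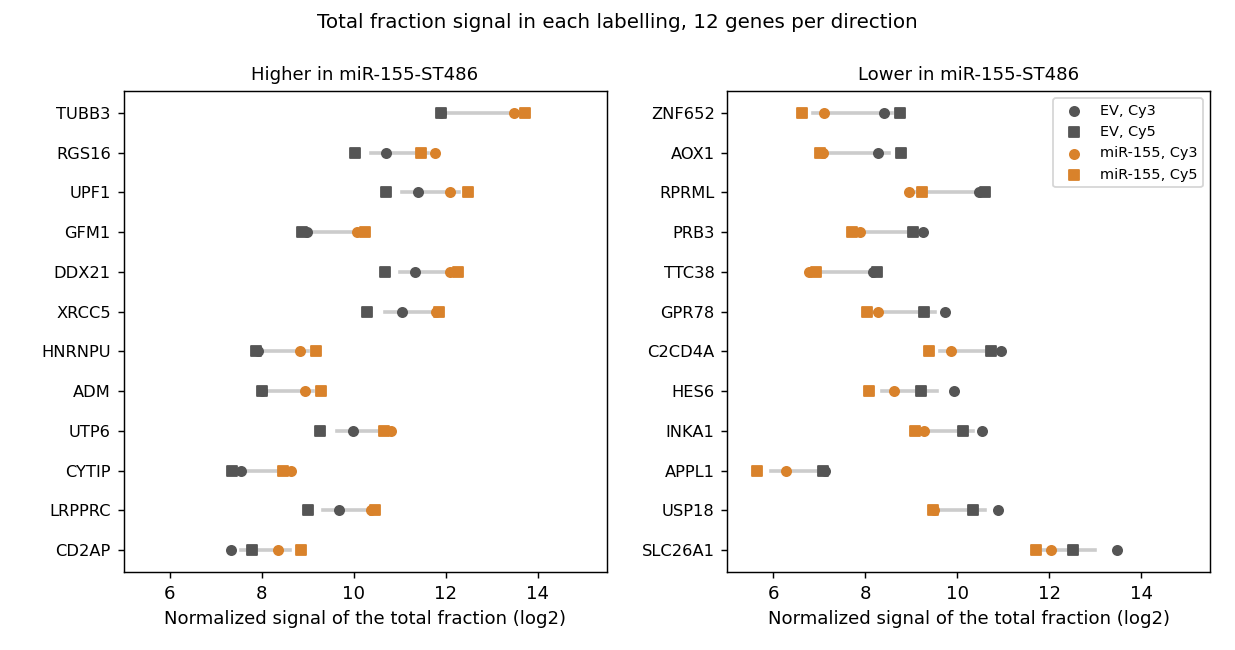
Log2 normalized signal of the total fraction (x axis) in the Cy3 (circles) and Cy5 (squares) labellings of EV (grey) and miR-155-ST486 cells (orange), for the 12 most different genes per direction detected in all 4 channels. The grey line joins the means of the vectors, and the filter on dye differences together with the 2-fold mark keeps their labellings apart.

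Genes with more than 1 probe gave a check on single probes. CREB5, DDX3X, EZR and RGS16 passed 1.5-fold in each dye with every deposited probe. CREB5, a CRE-binding transcription factor, was higher by 1.88 and 0.88, with the first of these probes undetected in 1 of the 4 channels. DDX3X, an RNA helicase, was higher by 1.04 and 0.83, and EZR, which links membrane proteins to actin, by 1.01 and 0.76. Under the alternatives tried the smallest differences were 0.17 and 0.35 for the CREB5, 0.59 and 0.17 for the DDX3X, 0.67 and 0.18 for the EZR and 1.05 and 0.28 for the RGS16 probes, so that at least 1 probe of each gene fell below 1.5-fold. Over the 13 genes called higher that had another probe, 15 further probes were not called, and 14 of these were higher in both dyes and 0 lower, with a median of 0.56 (0.05 to 0.99). Over all probes, 37.5% were higher in both dyes. BCL11A, a B cell transcription factor, was higher by 1.80, but its probe was not detected in the Cy5 labelling of EV.

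The 3 probes called higher without detection in either EV labelling were BC032913, AW979273 and ANK3. BC032913 had signals of 3.42 and 3.59 in EV and of 6.57 and 7.21 in miR-155-ST486 cells. AW979273 had 3.31 and 3.51 against 6.17 and 6.90. Both carry no gene symbol in the tables used. As bounds, BC032913 was at least 1.62-fold, AW979273 at least 1.38-fold and ANK3, a membrane scaffold, at least 1.05-fold higher. These bounds come from background-corrected signals normalized within and between arrays.

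ZNF652, a zinc finger repressor of transcription and a known miR-155 target, had the lowest difference of all genes. Its signals were 8.42 and 8.76 in EV and 7.10 and 6.63 in miR-155-ST486 cells, 3.29-fold lower. Over 214 ZNF genes the median difference was 0.05, and it ran from -0.10 to 0.05 under the scalings tried. ZNF652 was the 1 member called (0.315% of all genes were called lower), and ZNF91 was the next lowest, at -0.99. AOX1, an aldehyde oxidase, had 8.27 and 8.77 against 7.07 and 7.01, 2.80-fold lower. RPRML, related to the cell cycle arrest protein Reprimo, had 10.47 and 10.60 against 8.94 and 9.23, 2.73-fold lower. Both labellings of miR-155-ST486 cells were below both labellings of EV in ZNF652, AOX1 and RPRML, as the dye filter and the 2-fold mark require.

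The further lower genes were a mixed group. PRB3, a salivary proline-rich protein, and TTC38 were lower by 2.57-fold and 2.56-fold, and the orphan receptor GPR78 by 2.55-fold. HES6, a bHLH factor of the Hairy family, had signals of 9.92 and 9.22 in EV and 8.62 and 8.09 in miR-155-ST486 cells. C2CD4A was 2.32-fold, INKA1, an inhibitor of the kinase PAK4, 2.21-fold, and the endosomal adaptor APPL1 2.21-fold lower. SLC26A1, a sulphate transporter, had 13.47 and 12.51 against 12.04 and 11.71, with a larger difference in Cy3 than in Cy5. A second, dimmer SLC26A1 probe, annotated to another transcript, was at -0.47 and was not called.

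Every probe was called for USP18 and RGCC. USP18, which removes the ubiquitin-like ISG15 from proteins and damps interferon signalling, had 10.88 and 10.34 against 9.49 and 9.47 on 1 probe and 11.71 and 11.93 against 10.58 and 10.94 on the other. RGCC, a regulator of the cell cycle, had 11.64 and 11.92 against 10.61 and 10.86, and 10.73 and 10.92 against 9.68 and 9.84. The labellings agreed closely in RGCC, with differences between -1.03 and -1.08 over both probes and dyes. Of the 4 further probes of lower genes that were not called, 3 were lower in both dyes and 0 higher, with a median of -0.40. The exception was PFKFB3, an enzyme that makes the activator of phosphofructokinase, with -1.06 on 1 probe and 0.02 on the other, brighter one.

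The called genes differed in how far they depended on the processing. Over the alternative normalizations, filters and labellings, the log2 difference of the called TUBB3 probe ran from 1.57 to 1.85. The other, brighter TUBB3 probe was at only 0.26 in the deposited values. The first RGS16 probe ran from 1.05 to 1.43, but the second from 0.28 to 1.15. RPRML ran from -1.53 to -1.20 and the RGCC probes from -1.08 to -0.87. The difference of ZNF652 ran from -2.12 to -0.63. Other called probes came close to 0 under some alternatives without changing sign, with 0.06 for ANK3, 0.17 for the called CREB5 probe, 0.23 for CD2AP, 0.27 for ADM, 0.37 for CYTIP, -0.19 for APPL1, -0.26 for EGR1, -0.30 for PFKFB3 and -0.38 for PRB3.

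The 54 targets that the study selected by Ago2-RIP-Chip were chosen on these samples, by a higher IP/T ratio in miR-155-ST486 than in EV-ST486 cells. As the total fraction is the denominator of this ratio, a lower total signal favours selection, and the direction in the total fraction is not independent evidence. On the probes the study listed, 35 of the 54 were lower in both dyes and 6 higher, with a median difference of -0.21, against 34.9% lower and 37.5% higher over all probes. Of these probes 1 was called, that of KLHL5, which was lower by 0.93 in Cy3 and 1.20 in Cy5, 2.09-fold in the mean. A second KLHL5 probe was at -0.43 and was not called. The values of the 26 targets that the study lists with an 8-mer seed site were a median of -0.42 (20 lower and 2 higher in both dyes), and those of the 28 without a median of -0.13 (15 and 4). All had passed the same selection, and the difference between the groups was not tested.

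The genes the study followed up differed in their total RNA. DET1, a component of a ubiquitin ligase that acts on transcription factors, had 11.09 and 11.39 in EV against 10.19 and 10.38 in miR-155-ST486 cells, 1.94-fold lower. TBRG1, which encodes the growth inhibitor NIAM, was lower by 0.69 on the probe the study listed and by 0.13 on the other. Under the alternatives tried, the difference of the listed TBRG1 probe ran from -0.76 to -0.25. Per the study, the Ago2-enriched probe detects only the NIAM transcript, which holds a miR-155 site. The other probe also detects a more abundant non-coding transcript without this site. JARID2, a partner of Polycomb complex 2 and a known miR-155 target, had 9.23 and 9.39 against 8.65 and 8.99, 1.41-fold lower. The chromatin factor PSIP1 was lower by 0.71 on the study's probe and higher by 0.57 on another. The first is annotated to the transcript that the study names as holding the site, and the second to a different transcript. TRIM32 differed by -0.14 and -0.09 on its probes, within the spread between labellings (SD 0.26 of a difference). HOMEZ differed by 0.04 on 1 probe and by 0.43 on the other, which was higher in both dyes. None of these 6 genes was called.

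Of 44 genes known as miR-155 targets in immune cells, 33 had a deposited probe. The median difference was -0.14, and 18 of the 33 (54.5%) were lower in both dyes and 9 (27.3%) higher, against 32% and 41.2% over all 7930 genes. ZNF652 was the 1 member called (0.315% of all genes were called lower). The next lowest were TP53INP1, a p53-induced regulator of cell death, at -0.89, the heme-regulated repressor BACH1 at -0.74, and JARID2 at -0.49. BACH1, TAB2, PICALM and JARID2 of this list are also among the targets that the study chose on these samples. For them a lower total signal favoured that choice, so their direction is not independent evidence. TP53INP1 and ZNF652 were the 2 members lower by 1.5-fold in each dye, which 1.37% of all genes were. The signal transducers SMAD1, SMAD2 and SMAD5 were lower by 0.35, 0.29 and 0.47, in both dyes. SOCS1 and INPP5D, much studied inhibitors of cytokine and phosphatidylinositol signalling, had differences of 0.06 and -0.03. The lymphoid transcription factor ETS1 was the highest member, at 0.76.

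**Figure D3:**
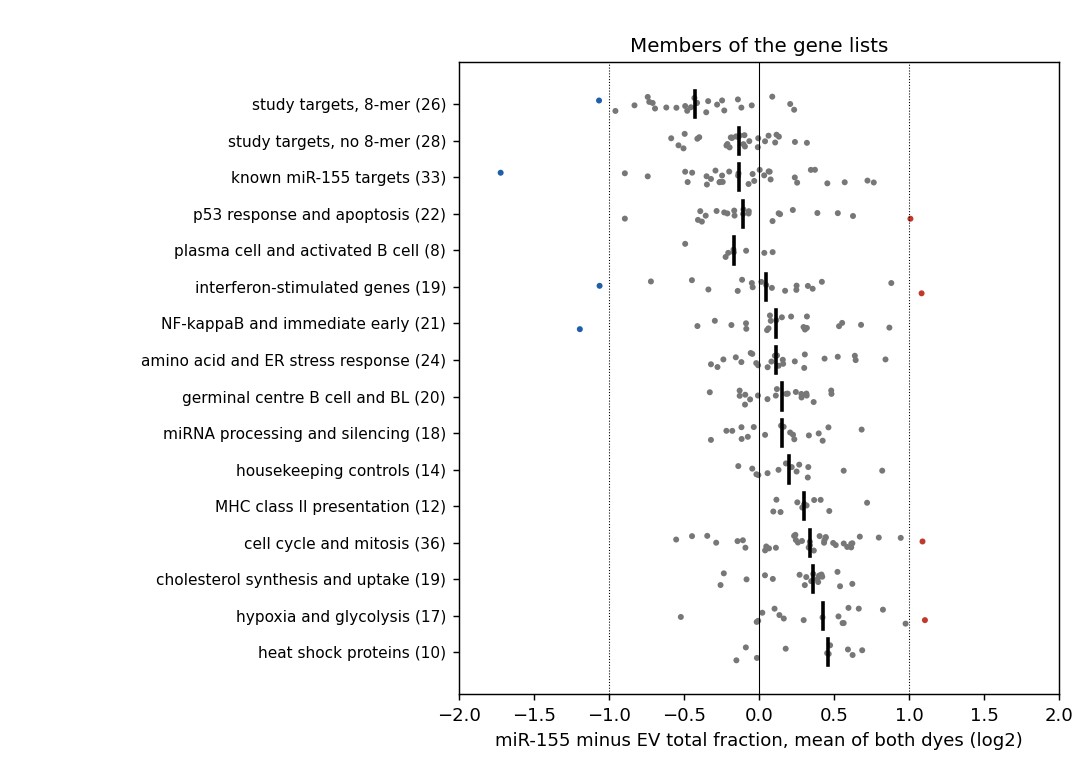
Each point is a gene of the list named on the left (number of members with a deposited probe in brackets), with its miR-155 minus EV difference in the total fraction on the x axis (log2, mean of both dyes). Black bars are medians, dotted lines mark 2-fold, and colour marks points beyond 2-fold in the mean, with the medians of the study targets at -0.42 and -0.13 and those of the cholesterol, glycolysis and heat shock genes at 0.36, 0.42 and 0.46.

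Among all genes, 41.2% were higher and 32% lower in both dyes. Lists of proliferation and metabolism genes were higher on balance, with few calls. Housekeeping controls also had a median of 0.20, with 10 of 14 higher in both dyes, and GAPDH was higher by 0.25. The cell cycle and mitosis list had a median of 0.34, with 25 of its 36 measured members (69.4%) higher in both dyes and 5 (13.9%) lower. It had 0 calls in either direction, and MCM3, MCM4 and MCM6 passed 1.5-fold in each dye (1.77% of all genes did). CCNE2, cyclin E2, was higher by 1.09 but below 1.5-fold in Cy3. The cyclin CCND3 and the inhibitor CDKN1B were the lowest, at -0.55 and -0.45.

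The 6 subunits of the MCM2-7 replicative helicase were all higher in both dyes (41.2% of all genes were). Their differences ran from 0.40 for MCM7 to 0.94 for MCM6, with a median of 0.62. This group and the families that follow were picked after their values had been seen. The median stayed between 0.30 and 0.64 under the scalings tried.

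The hypoxia and glycolysis list had a median of 0.42, which was 0.14 in both normexp settings. By the brightest probe of each gene ADM was its called member (0.441% of all genes were called higher), and 12 of 17 genes were higher in both dyes, 1 lower. A dimmer probe of PFKFB3, also in this list, was called lower, at -1.06, while its brighter probe was at 0.02. Hexokinase HK2, the first enzyme of glycolysis, was at 0.98, just under the 2-fold mark, and PKM and LDHA, which make pyruvate and lactate, at 0.66 and 0.60, whereas the aldolase ALDOA was at -0.52. In the cholesterol list, 15 of 19 genes (78.9%) were higher in both dyes and 3 lower, with a median of 0.36, which was 0.18 in both normexp settings, and 0 calls. The heat shock list had a median of 0.46 over 10 genes, which was 0.27 with the Cy3 labellings alone, with HSPD1, the mitochondrial chaperonin, highest at 0.69.

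MHC class II genes, which present peptides on B cells, were higher in both dyes for 11 of 12 (91.7%, against 41.2% of all genes). Their median was 0.30, with a range of 0.10 to 0.72. The highest was CIITA, the transactivator of the other genes, at 0.72. The germinal centre and BL identity list had a median of 0.15 over 20 genes and 0 calls, with differences from -0.33 for ID3 to 0.48 for BACH2, and the median was 0.05 with normexp and quantile normalization and just below 0 with normexp and loess. MYC gave opposite values on its 2 probes, 0.32 and -0.58. The plasma cell and activated B cell list had a median of -0.17 over 8 genes, with the plasma cell proteoglycan SDC1 at -0.49. Only 2 of the 14 T and NK cell genes had a deposited probe, LCK at -0.47 and CD4 at -0.35, and 0 of the 14 myeloid and erythroid genes did.

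The p53 and apoptosis list was lower on balance, with a median of -0.10, 14 of 22 genes (63.6%, against 32% of all genes) lower in both dyes and 6 higher. Its called member, however, was higher: RRM2B, the p53-induced ribonucleotide reductase subunit, by 1.01 (7.97 and 7.27 in EV, 8.78 and 8.48 in miR-155-ST486 cells, not detected in 1 of the EV labellings). The p53 target CDKN1A was at 0.53 and BTG2 at -0.39. The interferon list split, with a median of 0.05 over 19 genes that was -0.13 and -0.10 under the normexp settings. USP18 was its lowest and PARP9, a partner of the ubiquitin ligase DTX3L, its highest member, at 1.08 (6.84 and 6.54 against 7.72 and 7.82, not detected in 1 of the EV labellings). EGR1, an immediate early transcription factor, was the called member of the NF-kappaB and immediate early list, with 6.58 and 7.19 in EV against 5.88 and 5.51 in miR-155-ST486 cells, 2.29-fold lower, and 1 of the latter was not detected. This list had a median of 0.12 that was -0.06 and -0.04 under the normexp settings. The amino acid and ER stress list had a median of 0.11 over 24 genes, with PSAT1, of serine synthesis, highest at 0.84, and its median was 0.04 and -0.02 under the normexp settings. The miRNA machinery list had a median of 0.16 over 18 genes, with AGO2 at -0.22, DROSHA at 0.40 and TNRC6B, a silencing partner of Ago proteins, at 0.68, and its median was -0.07 and -0.13 under the normexp settings.

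Large families around the called genes were then described as a whole. Histone cluster genes, which encode the replication-dependent histones, were lower in both dyes for 44 of 48 (91.7%) and higher for 0. Over all genes 32% were lower and 41.2% higher in both dyes. The histone median was -0.68, and it was between -0.67 and -0.47 under the scalings tried. H4C6 and H4C1 were called, at -1.08 and -1.03 (0.315% of all genes were called lower). The members are close in sequence, so single histone genes cannot be separated with confidence. Of 28 DDX RNA helicases 23 (82.1%) were higher in both dyes and 1 lower, with a median of 0.39, and of 9 UTP genes 8 were higher, with a median of 0.40 and UTP15 highest at 1.38. The UTP15 probe was not detected in 1 of the EV labellings. Of 17 hnRNP genes 15 were higher, with a median of 0.32. Proteasome subunits had a median of 0.20 and initiation factors one of 0.19. Cytosolic ribosomal protein genes, by contrast, had a median of 0.02 over 75 genes, with 0 calls and a range from -0.48 to 0.79. The complex I subunits described, which are NDUF genes, had a median of -0.05. Over the scalings tried, the medians of the DDX, UTP and hnRNP genes stayed above 0 (lowest 0.24, 0.15 and 0.15), while that of the ribosomal protein genes ran from -0.14 to 0.02.

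**Figure D4:**
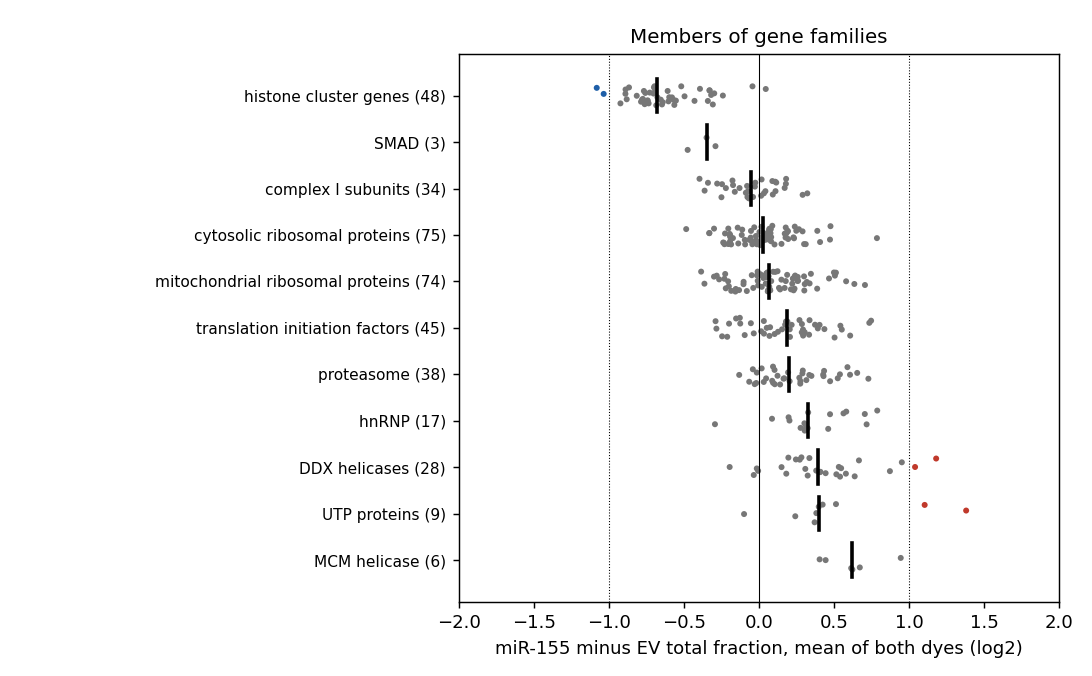
Each point is a gene of the family named on the left (number of genes in brackets), with its miR-155 minus EV difference in the total fraction on the x axis (log2, mean of both dyes). Black bars are medians, dotted lines mark 2-fold and colour marks points beyond it, and the histone cluster genes lie below 0 in all but 1 case while the 6 MCM helicase subunits lie above 0.

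The IP fractions of the same cells gave a second look at the called probes, on the same arrays and slides, in other channels. The IP signal moved with the total signal in most. Of the 59 higher probes 53 were higher in both dyes of the IP fraction as well, 28 of them by 1.5-fold, and of the 43 lower probes 40 were lower, 31 by 1.5-fold. Among all probes higher in both dyes of the total fraction, 60.8% were so in the IP fraction, and among the lower ones 60.1%. Both of these sets include probes that differed little. For the 1.5-fold counts no share over all probes was made, so they are descriptions only. The median IP difference was 0.75 for the higher and -1.13 for the lower probes. As both fractions of a vector share a slide, this does not separate the vector from the slide. The lower probes with a higher IP signal in both dyes were APPL1, KLHL5 and PFKFB3 (3 of 43). ZNF652 was lower by 1.72 in the total and by 0.38 in the IP fraction, and histone cluster genes had a median of -0.50 in the IP fraction. FBXO10 and a probe for NM_022574 were the 2 probes higher in total and lower in IP RNA.

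**Figure D5:**
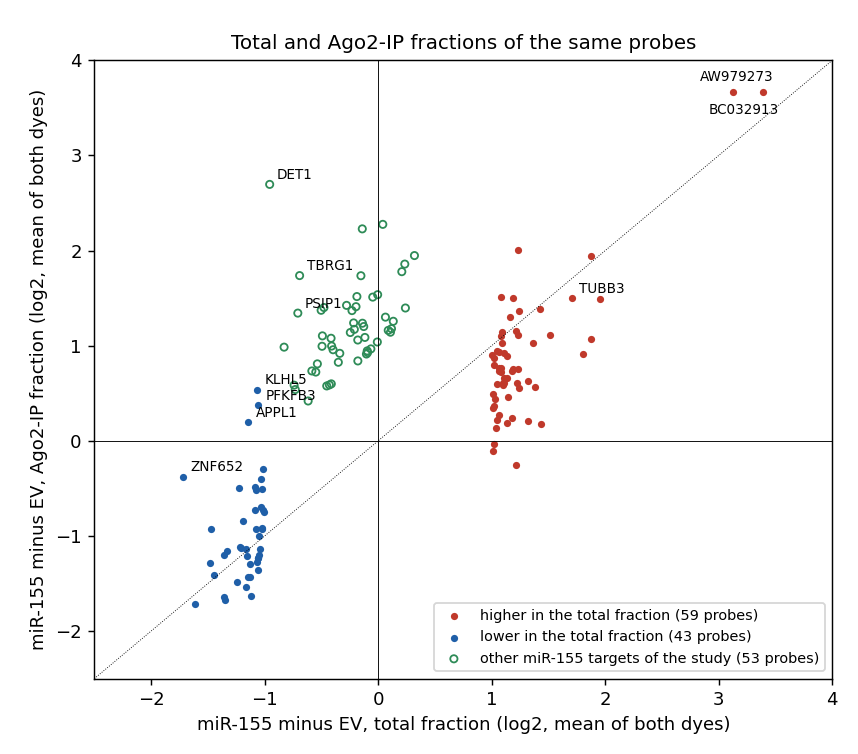
Differences between the vectors for 59 higher (red), 43 lower (blue) and 53 further study target probes (green): miR-155 minus EV in the total fraction on the x axis and in the Ago2-IP fraction on the y axis (log2, mean of both dyes). Most called probes lie in the quadrants where both fractions moved the same way, and the study targets, which were chosen for a higher IP/T ratio, lie above 0 on the y axis.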

How the data were processed

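Total and Ago2-IP RNA of both cell populations was labelled with a 2-colour kit and hybridized by the authors on Agilent 44k arrays, each array holding the IP and the total fraction of 1 vector in opposite dyes. Per the labels, spots were quantified with Agilent Feature Extraction 10.5.1.1, and the channel files hold its processed intensity. The log2 values deposited by the authors were quantile normalized, and probes were filtered on detection and on a dye difference of at most 2-fold, per the methods. They match a quantile normalization of the 8 channels made here. A gene was represented by its brightest probe in the total fraction.

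Differences were taken within each dye and averaged. A call needed 2-fold in the mean, 1.5-fold in each dye and detection in both labellings of the brighter vector. With 1 RNA sample per vector no test was run, and the number of arrays limits the precision. Genes were named by rule: the 12 highest and 12 lowest called genes detected in all 4 total channels, called list members, genes with every probe past 1.5-fold, the followed-up genes, MYC, GAPDH and MIR155HG, and probes undetected in the other vector with a bound. Some list members are not reported here. Other genes and the families were chosen after their values were seen. The members and lists were chosen with earlier results of these data known. Alternatives covered normalization, background correction (limma 3.58.1 in R 4.3.3, normexp with an offset of 50, local backgrounds above 500 replaced), filters and the call rule. Python 3.11.15 with numpy 2.4.6 and pandas 2.3.3 was used.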

Additional observations from a re-analysis of the deposited data

Results flagged for a closer look

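Among the probes of the genes named by rule that differed by at least 1.5-fold in the mean of the total fraction, 6 were lower there in both labellings while the Ago2-IP fraction was higher in both, and the difference between the fractions was not tested, since each rests on 1 RNA sample. On the log2 scale these were DET1 with -0.96 in the total and 2.70 in the IP fraction, TBRG1 with -0.69 and 1.74, PSIP1 with -0.71 and 1.34, and KLHL5 with -1.06 and 0.54. These 4 genes belong to the targets that the study chose by the IP/T ratio of these samples, which favours such a pattern. APPL1, with -1.15 and 0.20, and PFKFB3, with -1.06 and 0.37, do not belong to them. Second probes of APPL1 and PFKFB3 differed by -0.36 and 0.02 in the total fraction.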

How the results depend on the processing

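Across 422 values of the 39 called probes named, under 11 alternatives of normalization, filter or labelling, all kept their sign, 342 were at least 2-fold and 388 at least 1.5-fold. With 1 labelling alone, the call rule itself fixed the sign and the 1.5-fold. Settings that changed only a filter left the values the same or nearly so. The pooled counts therefore do not measure how far the calls withstand another scaling. The numbers of probes higher and lower (59 and 43) were 23 and 14 with normexp and quantile normalization, 15 and 14 with normexp and loess, 15 and 20 with 2-fold asked in each dye, 589 and 481 with only 1.5-fold in the mean and a smaller mark in each dye, and 7 and 2 with 3-fold in the mean. Only probes detected in all 4 total channels gave 23 higher probes, and no filter on dye differences gave 198. Leaving out the Cy5 or the Cy3 labellings, the counts ran from 32 to 347 higher and from 54 to 166 lower probes. The median of the study targets (-0.21) was -0.21 with quantile normalization of the 4 total channels, -0.25 with 75th percentile scaling, -0.28 with normexp and loess, -0.22 with all 4 channels detected and -0.23 with either labelling alone. That of the known targets (-0.14) was -0.22 and -0.26 with the normexp settings and -0.14 to -0.11 with 1 labelling, and that of the cell cycle list (0.34) was 0.19 and 0.22, and 0.29 to 0.37. The cause was not tested. No paired analysis was possible because replicate numbers mark the labellings of 1 RNA sample, and differences were already taken within each dye.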

Other observations

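Beside BC032913 and AW979273, the largest differences among probes without a gene symbol in the tables used were those of ENST00000330655, higher by 1.96, and NM_001008756, higher by 1.87 on the log2 scale, and the lowest was that of ENST00000361390, at -1.47. They were picked after their values were seen. Over the 23 chromosomes with a median to give, medians ran from -0.06 to 0.15, and over the 4 quadrants of the array from just below 0 to 0.04. The calls were less even over the quadrants. The lower right had 23 higher and 7 lower of 3296 probes, and the upper right 7 and 13 of 3913. The lower left had 14 and 10 of 3357, and the upper left 15 and 13 of 3887. This was not tested.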
